A study of Mus musculus with 22 samples.

Results

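The genes described here encode the receptors for GABA, glutamate, glycine, acetylcholine and serotonin, measured in ribosome-bound RNA of noradrenergic cells and in total RNA of the mouse hindbrain. They were chosen by gene symbol alone, taking every gene of the deposited table whose name starts with the stem of one of these receptor families, and 58 of 12596 genes matched. The 58 comprised 14 GABA-A subunits, 2 GABA-B subunits, 3 glycine receptor subunits, 4 AMPA, 5 kainate, 5 NMDA and 2 delta subunits, 7 metabotropic glutamate receptors, 6 nicotinic subunits, 3 muscarinic receptors and 6 serotonin receptors. The remaining match, Grid2ip, encodes a protein that binds the delta receptor and is not itself a receptor; it stays in all counts. Family members that the table does not list, such as Grin2a, Grin2b, Chrnb4 and Htr1b, are not analysed here.

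All 22 libraries came from mice of a C57Bl/6 background bred by crossing Th-cre mice with Slc6a2-eGFP/Rpl10a mice, and the labels give the latter genotype for every library, controls included. In that transgene, regulatory DNA of Slc6a2, the noradrenaline transporter gene, drives a fluorescent tag on the ribosomal protein Rpl10a, which allows the ribosomes of noradrenergic cells to be pulled down with the RNA they carry. The treatment was an infusion, labelled hTyr after the human pigment enzyme tyrosinase (5 animals) or EYFP after a fluorescent protein, as a control (6 animals). Each animal, named here by the code of its IP library (IP_501 and so on), gave 1 immunoprecipitated library (IP) and 1 library of hindbrain RNA taken before the immunoprecipitation (input), which makes 4 groups, EYFP input and EYFP IP with 6 libraries each and hTyr input and hTyr IP with 5 each. The labels used here give no ages, infusion times or sexes. The study asked how hTyr, and the neuromelanin pigment it makes, affects the locus coeruleus, the brainstem nucleus that holds most noradrenergic neurons of the brain.

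Locus coeruleus neurons fire under the control of these receptors. GABA-A receptors and glycine receptors are chloride channels built of several subunits that inhibit a neuron, while AMPA, kainate and NMDA receptors are cation channels opened by glutamate and nicotinic receptors are cation channels opened by acetylcholine. GABA-B, metabotropic glutamate, muscarinic and most serotonin receptors act through G proteins. Which subunits a neuron makes decides the kinetics, drug sensitivity and location of its receptors, and subunit genes of the GABA-A family lie side by side in the genome.

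The libraries held 12654489 to 25100142 reads in the table's genes, and hTyr IP libraries were the shallowest group (12654489 to 19043798 reads). The lowest count of any of the 58 genes in any library was 9 reads, for Gabra6. The immunoprecipitation enriched noradrenergic markers, 13 of 14 of which passed the test in EYFP and 14 of 14 in hTyr animals, with Dbh, the noradrenaline-synthesising enzyme, at 4.02 ± 0.20 and 4.30 ± 0.22 (log2 IP minus input ± SE). The same IP libraries also held more of some genes of other neurons, among them Slc17a6, the glutamate transporter of brainstem neurons (1.08 and 1.33), Tph2, the serotonin-synthesising enzyme (1.23 and 1.28), Slc5a7, the choline transporter (1.27 and 1.49), and Gad1, a GABA-synthesising enzyme (0.84 and 0.88). Other markers of the same neurons fell or did not pass. Of 6 serotonergic markers 2 rose and 3 fell in EYFP animals and 2 rose and 1 fell in hTyr animals. The counts of risen and fallen genes were 3 and 1, then 2 and 1, of 5 GABAergic markers. They were 1 and 0 in both treatments of 4 glutamatergic markers and 3 and 0, then 2 and 0, of 4 cholinergic ones. Of 2 glycinergic markers 1 fell and 0 rose. Astrocyte markers gave 5 risen and 0 fallen in EYFP and 6 and 1 in hTyr animals of 10, oligodendrocyte markers 2 and 5, then 3 and 5, of 10, microglial markers 0 and 1, then 2 and 1, of 10, endothelial markers 1 and 0, then 3 and 0, of 6, and Purkinje neuron markers 1 and 0, then 1 and 3, of 7. Of all genes, 28.5% rose and 28.1% fell in EYFP animals and 27.4% rose and 27.0% fell in hTyr animals. No marker of these lists was at 0 reads in a whole group, and their part in the receptor results was not tested. Libraries differed in 2 further ways within groups. Markers of cerebellar granule neurons varied most among EYFP libraries, and animals IP_505 and IP_509 had the highest levels, in both of their libraries, of Slc17a7 (7.97 to 8.91) and Neurod6 (up to 5.27), genes of forebrain and other glutamatergic neurons.

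Sequence upstream of the start site is shown for 4 members, the 2 that rose most and the 2 that fell most among those with a RefSeq promoter entry whose window lies outside the annotated gene, since these genes moved in opposite directions. Each run is the 250 bases 5′ of the RefSeq start on the gene's own strand (GRCm38.p6, the build behind mm10), in lower case with 2 motifs in capitals on either strand, the GC box GGGCGG, which binds Sp-family factors, and ATTA, the core that homeodomain factors such as the noradrenergic Phox2 proteins recognise.
Gabrq (chrX:72824928-72825177, + strand): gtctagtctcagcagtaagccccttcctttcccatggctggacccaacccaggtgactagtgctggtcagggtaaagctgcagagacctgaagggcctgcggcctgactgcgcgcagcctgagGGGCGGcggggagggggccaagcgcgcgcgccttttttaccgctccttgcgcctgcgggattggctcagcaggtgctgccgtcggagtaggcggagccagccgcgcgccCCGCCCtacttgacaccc
Gabrg1 (chr5:70842618-70842867, - strand): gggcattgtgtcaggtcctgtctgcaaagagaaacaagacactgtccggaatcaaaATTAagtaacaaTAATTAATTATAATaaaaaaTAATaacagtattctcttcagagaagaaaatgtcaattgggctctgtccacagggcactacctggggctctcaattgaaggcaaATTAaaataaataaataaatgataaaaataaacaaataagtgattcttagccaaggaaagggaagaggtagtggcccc
Grik5 (chr7:25072370-25072619, - strand): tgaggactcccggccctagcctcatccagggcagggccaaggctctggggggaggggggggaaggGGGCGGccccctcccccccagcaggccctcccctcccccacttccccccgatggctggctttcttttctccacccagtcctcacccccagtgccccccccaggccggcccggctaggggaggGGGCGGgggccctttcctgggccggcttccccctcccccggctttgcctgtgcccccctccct
Grin2c (chr11:115267244-115267493, - strand): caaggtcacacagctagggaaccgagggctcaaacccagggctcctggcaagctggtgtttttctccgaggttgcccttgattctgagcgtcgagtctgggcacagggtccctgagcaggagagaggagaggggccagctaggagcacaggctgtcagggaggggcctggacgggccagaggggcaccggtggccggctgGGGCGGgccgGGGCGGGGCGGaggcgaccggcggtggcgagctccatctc
Gabrg1, whose transcript rose, had 35.6% GC upstream, with 8 ATTA matches (overlapping ones counted) and 0 GC boxes. Gabrq also rose and had 67.2% GC, 2 GC boxes and 0 ATTA matches, so the 2 risen genes differ from each other. Grik5 and Grin2c, which fell, had 75.2% and 68.8% GC with 2 and 3 GC boxes and 0 ATTA matches. Of all 58 members, 40 had an entry in the RefSeq promoter table. Among these, ATTA was present in 6 of 17 members that rose in both treatments and in 0 of 7 that fell, against 55.3% of all 27025 promoters of this length. GGGCGG was present in 10 of 17 and 5 of 7, against 32.9% of all promoters. The median upstream GC content was 62.0% in the former, 75.2% in the latter and 52.0% in all promoters. A match is a description of the letters and not a binding site.

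Comparing IP with input asks which receptor transcripts were more or less abundant on ribosomes of the tagged cells than in the surrounding hindbrain. Among receptor genes that passed the test, more were higher in IP than lower. In EYFP animals 25 of 58 members (43.1%) were higher in IP, where 28.5% of all genes were, and 9 (15.5%) were lower, where 28.1% of all genes were. In hTyr animals 28 (48.3%) were higher and 9 (15.5%) lower, beside 27.4% and 27.0% of all genes. The test was limma on log2 CPM (library-scaled counts) with Benjamini-Hochberg adjustment over 12596 genes and a threshold of 0.05. It treated the IP and input libraries of an animal as unpaired. A fit with the animal as a block, which pairs them, was an alternative. Fewer members were higher in each treatment once the trend with transcript length and GC content was removed, as given with the GC content. The median change of the members was 0.16 in EYFP and 0.31 in hTyr animals on the log2 scale, and that of all genes was -0.03 and -0.04. The 25 that rose in EYFP animals also rose in hTyr animals (24.2% of all genes rose in both), 8 (13.8%) fell in both (22.1% of all genes), and 20 passed in neither. The count of 20 depends on the unpaired test. With the animal as a block, Gabra6 and Chrna4 of these passed in both treatments. Gabbr1, Gabra5 and Htr5a then passed in EYFP animals and Htr1d in hTyr animals. IP lay above the same animal's input in all 11 animals for 22 members (37.9%, beside 22.8% of all genes) and below it in all 11 for 10 (17.2%, beside 21.4%). In a bulk library more cells of a type and more RNA per cell cannot be told apart.

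**Figure D1:**
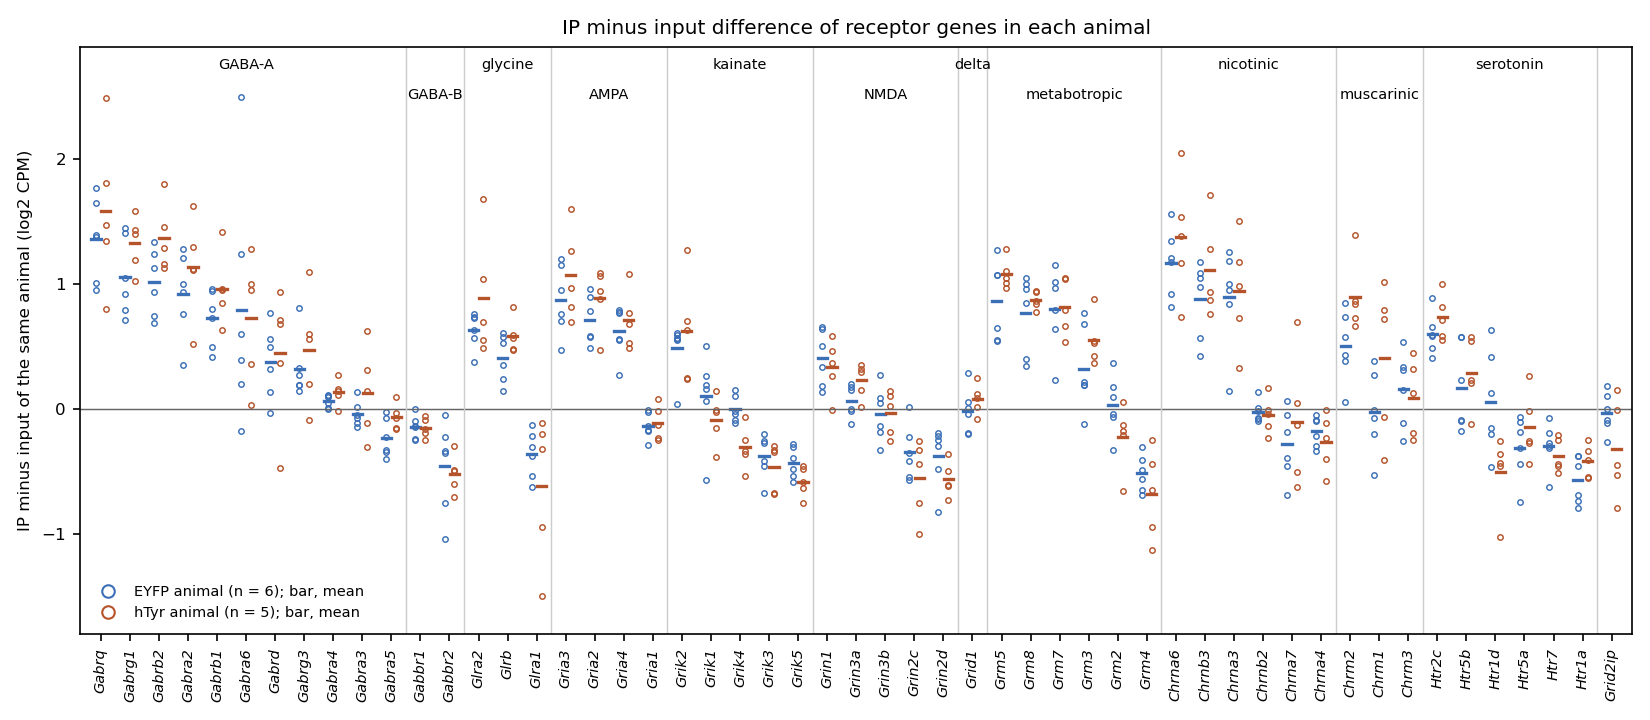
IP minus input difference in log2 CPM (vertical axis) of each receptor gene shown, grouped by family and sorted by mean; circles are animals (6 EYFP, blue; 5 hTyr, brown) and bars are means. By mean, GABA-A, nicotinic, metabotropic and AMPA genes extend furthest above 0, with Gabrq highest. Htr1a, Grm4 and Grik5 lie below 0 in every animal.

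Of the 14 GABA-A subunits, 9 rose in EYFP animals and 10 in hTyr animals, and 0 fell. The shares of all genes were 28.5% risen and 28.1% fallen in EYFP animals and 27.4% and 27.0% in hTyr animals. Gabrq, which encodes the rare theta subunit found in monoaminergic nuclei, had the largest rise of any member. Its level in EYFP animals lay between 2.58 and 3.48 log2 CPM in input (median 3.06) and between 3.54 and 4.87 in IP (median 4.58). In hTyr animals input was at 2.99, 3.004, 3.06, 3.07 and 3.43 and IP at 4.23, 4.35, 4.54, 4.88 and 5.48. Every IP value was above every input value in both treatments. The rise was 2.57-fold in EYFP (log2 1.36 ± 0.22 SE, adjusted p = 8.91e-05) and 2.999-fold in hTyr animals (1.58 ± 0.19, adjusted p = 3.66e-06).

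Gabrb2, a beta subunit of common synaptic GABA-A receptors, rose 2.02-fold in EYFP and 2.58-fold in hTyr animals. In EYFP animals input ranged from 5.65 to 6.29 (median 6.14) and IP from 6.59 to 7.45 (median 7.12). In hTyr animals input was at 5.37, 5.94, 5.94, 5.98 and 6.09 and IP at 7.08, 7.10, 7.17, 7.38 and 7.44. The groups did not overlap, and the log2 changes were 1.01 ± 0.14 (adjusted p = 2.84e-05) and 1.37 ± 0.12 (adjusted p = 1.5e-07).

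Gabra6, the alpha subunit of cerebellar granule cells, did not pass the test (0.79 ± 0.67 in EYFP, 0.73 ± 0.39 in hTyr). IP was above input for Gabra6 in 10 of 11 animals, and it passed with the animal as a block (adjusted p = 0.0079 and 0.0457). The GABA-A cluster on chromosome 5 (mm10, GENCODE M21) gave Gabrg1 (1.05 ± 0.18 and 1.33 ± 0.12), Gabra2 (0.92 ± 0.25 and 1.14 ± 0.20) and Gabrb1 (0.72 ± 0.11 and 0.96 ± 0.13), all higher in IP in 11 of 11 animals. The remaining gene of that cluster, Gabra4, an extrasynaptic alpha subunit, was at 0.06 ± 0.13 and 0.13 ± 0.11 and did not pass. So all measured members of that cluster but 1 rose. Clusters on chromosomes 7 and X held genes with unlike changes. Gabrg3 rose by 0.32 ± 0.11 and 0.47 ± 0.15, and its neighbour Gabra5, an alpha subunit known from hippocampal extrasynaptic receptors, was at -0.23 ± 0.12 and -0.07 ± 0.16. Gabra5 passed only in EYFP animals with the animal as a block (adjusted p = 0.0065). Gabra3 lies beside Gabrq on the X chromosome and is the alpha subunit best known from monoaminergic neurons, and at -0.04 ± 0.09 and 0.13 ± 0.11 it did not pass. Gabra3 IP values (6.57 to 6.90 in EYFP) lay inside its input range (6.61 to 7.01) but for the 2 lowest, while Gabrq did not overlap at all.

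Gabrd, the delta subunit of extrasynaptic receptors, passed in hTyr animals alone (0.45 ± 0.17, adjusted p = 0.0385; EYFP 0.37 ± 0.23, adjusted p = 0.181), and with the animal as a block also in EYFP animals (adjusted p = 0.0020). The difference between the treatments was not past the threshold in the interaction test. Without animal IP_502, IP_508, IP_509 or IP_510 the hTyr call of Gabrd was lost (adjusted p 0.0704 to 0.134). Gabrg3 lost its call without animal IP_506 in EYFP animals (0.0912) and without IP_501 or IP_502 in hTyr animals (0.0816 and 0.0563). It depends on base composition too, as given with the GC content.

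**Figure D2:**
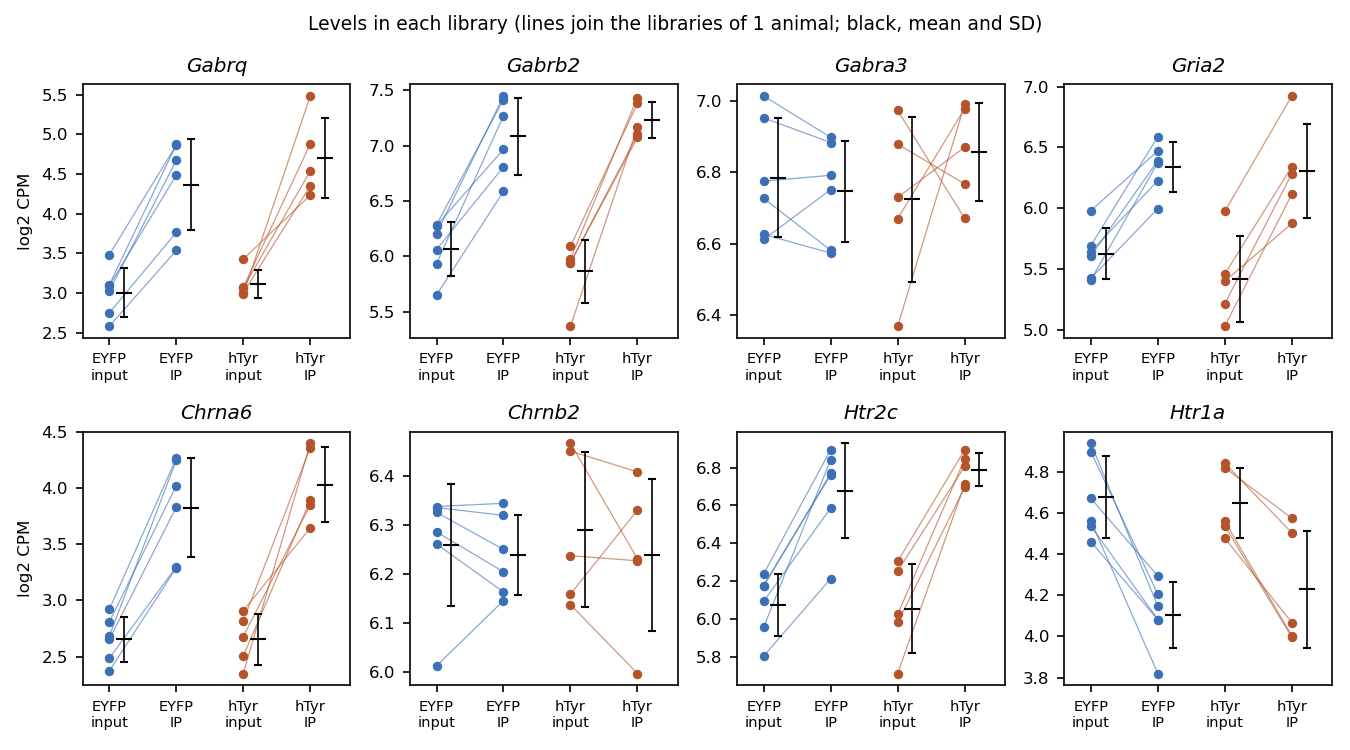
Levels of 8 members in log2 CPM (vertical axis, a separate scale for each gene) in every library of the 4 groups; lines join input and IP of 1 animal, and black marks are means ± SD. Gabrq, Gabrb2, Gria2, Chrna6 and Htr2c rise in every animal, Htr1a falls in every animal, and Gabra3 and Chrnb2 move in either direction.

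The GABA-B receptor, an obligate pair of Gabbr1 and Gabbr2 that slows firing through potassium channels, went the other way. Gabbr2 fell from 6.52 to 7.01 in EYFP input (median 6.90) to 5.84 to 6.87 in IP (median 6.41). In hTyr animals Gabbr2 was at 6.73, 6.78, 6.90, 7.07 and 7.14 in input and at 6.17, 6.20, 6.24, 6.57 and 6.84 in IP. The ranges overlapped, yet IP was below input in each of 11 animals, by -0.46 ± 0.14 (adjusted p = 0.0099) and -0.52 ± 0.12 (adjusted p = 0.0021). Both Gabbr2 calls were lost once the trend with transcript length and GC content was removed, as given with the GC content. Gabbr1, the agonist-binding subunit, had the highest level per length of any member in all 4 groups (6.81 to 6.99 log2 CPM per kilobase). It was below input in 11 of 11 animals too, but by only -0.15 ± 0.06 and -0.15 ± 0.08, and it passed in EYFP animals only with the animal as a block (adjusted p = 0.0475; without it 0.0521). Both subunits were therefore detected at high levels in IP.

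Of the glycine receptor genes, Glrb and Glra2 rose. Glrb, the beta subunit that anchors the receptor to gephyrin, ranked second per length in all 4 groups and rose by 0.41 ± 0.10 and 0.59 ± 0.09 on the log2 scale. Glra2, the alpha subunit typical of young neurons, rose 1.55-fold (0.63 ± 0.12, adjusted p = 0.000267) and 1.86-fold (0.89 ± 0.14, adjusted p = 6.46e-05). Glra1, the main adult alpha subunit of brainstem and spinal cord, was lower in IP in 11 of 11 animals (-0.36 ± 0.14 in EYFP, adjusted p = 0.0358; -0.62 ± 0.35 in hTyr, adjusted p = 0.141). The hTyr value of Glra1 passed with the animal as a block (adjusted p = 0.0172), and the EYFP call was lost without animal IP_504, IP_505, IP_511 or IP_512 (adjusted p 0.0522 to 0.119). Glra1 levels in hTyr IP were widely spread, at 0.91, 1.29, 2.51, 2.57 and 3.07, against 2.23, 2.41, 2.77, 2.83 and 3.19 in input. The 2 alpha subunits of the table thus had values of opposite sign in both treatments.

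Glutamate-gated channels split by class and subunit. Among AMPA receptor genes Gria2, Gria3 and Gria4 rose in both treatments and Gria1 did not pass in either. Gria3 had the largest rise, 1.84-fold in EYFP and 2.10-fold in hTyr animals (0.88 ± 0.12 and 1.07 ± 0.17). Gria2, the subunit that makes the channel impermeable to calcium, lay between 5.41 and 5.98 in EYFP input (median 5.63) and between 6.00 and 6.59 in IP (median 6.38). In hTyr animals Gria2 was at 5.03, 5.22, 5.40, 5.46 and 5.97 in input and at 5.88, 6.12, 6.28, 6.34 and 6.92 in IP. IP exceeded input in every animal, although 1 hTyr IP value fell below the highest hTyr input value (0.71 ± 0.11, adjusted p = 4.01e-05, and 0.89 ± 0.18, adjusted p = 0.000439). Both Gria2 calls were lost once the trend with transcript length and GC content was removed, as given with the GC content. Gria1 was lower in IP in 10 of 11 animals, by -0.13 ± 0.12 and -0.11 ± 0.14. With a share taken as CPM per kilobase of the longest transcript, as a percent of the 4 AMPA genes, Gria1 remained the largest, but it went from 59.3% ± 5.6 in EYFP input to 44.7% ± 5.4 in IP (SD, n = 6) and from 58.8% ± 4.9 to 42.1% ± 3.8 in hTyr animals (SD, n = 5), while Gria3 went from 13.0% ± 1.7 to 19.7% ± 2.6 and from 12.6% ± 1.8 to 20.4% ± 1.6. These shares have no test of their own.

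**Figure D3:**
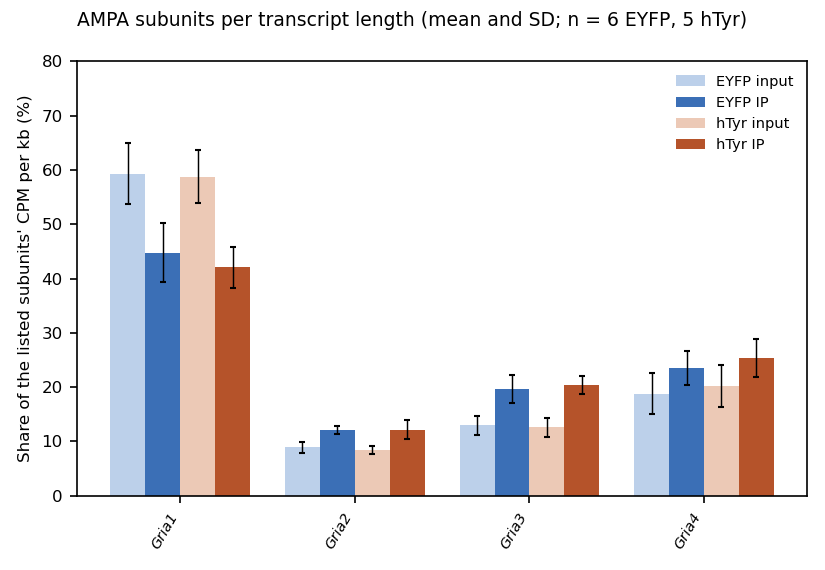
Share of each AMPA subunit (vertical axis, percent of the CPM per kilobase of the 4 genes) in the 4 groups; bars are means and error bars SD (n = 6 EYFP, 5 hTyr). Gria2, Gria3 and Gria4 take larger shares in IP than in input in both treatments and Gria1 a smaller one.

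Kainate receptor genes mostly fell or did not pass. Of the 5, 1 rose and 2 fell in EYFP animals, beside 28.5% and 28.1% of all genes. In hTyr animals 1 rose and 3 fell, beside 27.4% and 27.0%. Grik5, the high-affinity subunit that works only with a low-affinity partner, fell in every animal, from 7.04 to 7.55 in EYFP input (median 7.20) to 6.62 to 7.27 in IP (median 6.71). In hTyr animals Grik5 was at 7.07, 7.14, 7.20, 7.33 and 7.38 in input and at 6.44, 6.64, 6.66, 6.74 and 6.74 in IP, with no overlap. In EYFP animals the highest IP value lay within the input range. The changes were -0.43 ± 0.11 (adjusted p = 0.0030) and -0.58 ± 0.09 (adjusted p = 3.30e-05). Grik3 fell by -0.38 ± 0.09 and -0.47 ± 0.11 in 11 of 11 animals as well. Grik2, a low-affinity partner, rose by 0.49 ± 0.10 and 0.62 ± 0.14, but these calls ended and the values turned to -0.10 and -0.17 once the trend with transcript length and GC content was removed. Grik4 passed only in hTyr animals (-0.31 ± 0.11, adjusted p = 0.0246), a call lost without animal IP_501, IP_508 or IP_509 (adjusted p 0.0506 to 0.0903), and Grik1 was at 0.10 ± 0.16 and -0.09 ± 0.17.

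Among NMDA receptor genes, Grin1, the subunit every NMDA receptor needs, rose by 0.41 ± 0.09 and 0.34 ± 0.09, while the glutamate-binding subunits Grin2c and Grin2d fell. Grin2d, a slow subunit of brainstem and midbrain, fell by -0.38 ± 0.12 and -0.56 ± 0.12 in 11 of 11 animals, and without animal IP_507 its EYFP call was lost (adjusted p = 0.0716). Grin2c, prominent in cerebellar granule cells, fell by -0.35 ± 0.14 (adjusted p = 0.0471) and -0.56 ± 0.11 (adjusted p = 0.000402), and its EYFP call was lost without animal IP_504, IP_505 or IP_507 (adjusted p 0.0720 to 0.137). Grin2c and Grin2d lost their calls in both treatments once the trend with transcript length and GC content was removed, as given with the GC content. Granule neuron markers as a list were also lower in IP, 3 of 9 past the threshold in EYFP and 6 of 9 in hTyr animals and 0 higher, and their part in the Grin2c result was not tested. Grin3a passed only in hTyr animals (0.23 ± 0.09, adjusted p = 0.0415) and lost that call without animal IP_501, IP_502, IP_508 or IP_510 (adjusted p 0.0646 to 0.143). Grin3b (-0.04 ± 0.14 and -0.03 ± 0.21), the delta receptor gene Grid1 (-0.01 ± 0.07 and 0.08 ± 0.08) and Grid2ip (-0.03 ± 0.18 and -0.32 ± 0.34) did not pass.

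The metabotropic receptors rose more often than they fell, 4 of 7 in EYFP and 5 of 7 in hTyr animals against 1 in each. Of all genes, 28.5% rose and 28.1% fell in EYFP animals and 27.4% and 27.0% in hTyr animals. Grm5, a group I receptor that couples to phospholipase C, lay between 4.40 and 5.15 in EYFP input (median 4.67) and between 5.22 and 5.80 in IP (median 5.63), without overlap, a 1.82-fold rise (0.86 ± 0.13). In hTyr animals Grm5 rose 2.12-fold (1.08 ± 0.16), from 4.03, 4.51, 4.62, 4.62 and 5.03 to 5.32, 5.59, 5.61, 5.63 and 6.08. The group III receptors, mostly presynaptic brakes on release, differed from each other: Grm7 (0.80 ± 0.11 and 0.82 ± 0.10) and Grm8 (0.77 ± 0.15 and 0.87 ± 0.15) rose, while Grm4 fell in all 11 animals (-0.52 ± 0.15, adjusted p = 0.0097, and -0.68 ± 0.14, adjusted p = 0.000516). Per length Grm4 was still the highest metabotropic gene in all 4 groups, at 4.20 in EYFP input and 3.68 in EYFP IP (log2 CPM per kilobase). Of group II, Grm3 passed in hTyr animals (0.55 ± 0.13, adjusted p = 0.0016) and in EYFP animals only with the animal as a block (0.32 ± 0.15, adjusted p = 0.0137; 0.0708 without the block and 0.0303 without animal IP_505), and Grm2 did not pass (0.03 ± 0.18 and -0.22 ± 0.17).

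Acetylcholine receptor genes separated into subunits that rose and the most abundant subunits, which did not. Chrna6 and Chrnb3, which together form a receptor type concentrated in catecholaminergic neurons, are neighbours on chromosome 8 (Chrnb3 at chr8:27368711-27399730, Chrna6 at chr8:27403212-27413944, mm10). Chrna6 lay between 2.37 and 2.92 in EYFP input (median 2.67) and between 3.29 and 4.26 in IP (median 3.93). In hTyr animals Chrna6 was at 2.35, 2.51, 2.68, 2.82 and 2.91 in input and at 3.65, 3.85, 3.89, 4.36 and 4.40 in IP. The groups did not overlap in either treatment, and the rise was 2.25-fold (1.17 ± 0.17, adjusted p = 4.03e-05) and 2.59-fold (1.38 ± 0.17, adjusted p = 4.58e-06), second only to Gabrq in EYFP animals. These values rest on 101 to 154 reads per library in EYFP input and 166 to 387 in EYFP IP.

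Chrnb3 rose 1.84-fold and 2.16-fold (0.88 ± 0.19 and 1.11 ± 0.17), from 1.67 to 2.68 in EYFP input (median 2.14) to 2.53 to 3.64 in IP (median 3.12). In hTyr animals Chrnb3 was at 1.87, 2.16, 2.19, 2.27 and 2.54 in input and at 3.03, 3.21, 3.31, 3.47 and 3.59 in IP. Chrna3, the ganglionic alpha subunit also made by locus coeruleus neurons, rose by 0.90 ± 0.17 and 0.94 ± 0.19. The widespread high-affinity pair Chrna4 and Chrnb2 had the highest nicotinic levels per length and did not pass (Chrna4 -0.18 ± 0.08 and -0.27 ± 0.12; Chrnb2 -0.02 ± 0.07 and -0.05 ± 0.10). Chrna4 IP was below input in 11 of 11 animals and passed in both treatments with the animal as a block (adjusted p = 0.0173 and 0.0164). Chrna7, which forms homomeric receptors, was at -0.28 ± 0.15 and -0.10 ± 0.18. Of the muscarinic receptors, Chrm2, the inhibitory autoreceptor of cholinergic terminals, rose in 11 of 11 animals (0.51 ± 0.12 and 0.90 ± 0.13), from 4.36 to 4.87 in EYFP input (median 4.56) to 4.74 to 5.30 in IP (median 5.22) and, in hTyr animals, from 3.91, 4.35, 4.41, 4.66 and 4.70 to 5.22, 5.25, 5.30, 5.36 and 5.39. Chrm3 (0.16 ± 0.11 and 0.09 ± 0.14) and Chrm1 (-0.03 ± 0.49 and 0.41 ± 0.49) did not pass. Chrm1 was highest in 3 animals, IP_505 (5.20 in input and 5.13 in IP), IP_509 (4.95 and 4.54) and IP_504 (4.05 and 4.04), and the first 2 were also the highest in Slc17a7 and Neurod6.

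Of the 6 serotonin receptors, 1 rose and 2 fell in each treatment. Among all genes 28.5% rose and 28.1% fell in EYFP animals and 27.4% and 27.0% in hTyr animals. Htr2c, a Gq-coupled receptor, rose 1.52-fold in EYFP animals, from 5.80 to 6.24 in input (median 6.13) to 6.21 to 6.89 in IP (median 6.77), and 1.66-fold in hTyr animals, from 5.71, 5.98, 6.03, 6.25 and 6.30 to 6.70, 6.71, 6.81, 6.84 and 6.89. The log2 changes were 0.60 ± 0.11 (adjusted p = 0.000195) and 0.73 ± 0.10 (adjusted p = 1.80e-05), and Htr2c had the highest serotonin receptor level per length in every group. Htr1a, the inhibitory receptor best known as the autoreceptor of serotonin neurons, fell in every animal. It lay between 4.46 and 4.94 in EYFP input (median 4.62) and between 3.82 and 4.29 in IP (median 4.11). In hTyr animals Htr1a was at 4.48, 4.54, 4.56, 4.82 and 4.84 in input and at 3.995, 4.003, 4.07, 4.503 and 4.57 in IP. The fall was -0.57 ± 0.10 (adjusted p = 0.000195) in EYFP, where groups did not overlap, and -0.42 ± 0.13 (adjusted p = 0.0142) in hTyr animals, where they did; without animal IP_502 the hTyr call was lost (adjusted p = 0.0525).

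In the same libraries 2 of 6 serotonergic markers rose, Tph2 among them, and 3 (EYFP) or 1 (hTyr) fell, with medians of -0.32 and -0.20, and their part in the Htr1a result was not tested. Htr7, a receptor coupled to Gs, fell by -0.30 ± 0.09 (adjusted p = 0.0132) and -0.37 ± 0.12 (adjusted p = 0.0173) in 11 of 11 animals, and these calls were lost without animal IP_507 (adjusted p = 0.0715) in EYFP and without IP_501 or IP_509 (0.0548 and 0.0574) in hTyr animals. Htr5b did not pass (0.17 ± 0.16 and 0.29 ± 0.19). Htr5a (-0.31 ± 0.16 and -0.14 ± 0.15) and Htr1d (0.06 ± 0.19 and -0.51 ± 0.23) passed only with the animal as a block, the former in EYFP animals (adjusted p = 0.0180) and the latter in hTyr animals (0.0392).

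Proteins that anchor, assemble or modulate these receptors were taken from 5 lists. Of 72 partners in the table, 12 rose and 32 fell in EYFP animals, with a median of -0.23, where 28.5% of all genes rose and 28.1% fell. In hTyr animals 13 rose and 34 fell, with a median of -0.18, beside 27.4% and 27.0% of all genes. Of 12 genes for inhibitory anchoring and assembly, 2 rose in each treatment and 8 (EYFP) or 6 (hTyr) fell. The 2 were Gphn (0.61 and 0.68), the gephyrin scaffold that binds Glrb and GABA-A receptors, and Plcl1 (0.97 and 1.01), a GABA-A trafficking protein. Iqsec3 (-0.82 and -0.91), a gephyrin partner, and Shisa7 (-0.73 and -1.03), a GABA-A auxiliary subunit, fell most. Of 25 AMPA and kainate auxiliary genes 5 or 6 rose and 10 or 11 fell; Olfm3 (1.19 and 1.56), Grip1 (0.49 and 0.55) and Neto2 (0.23 and 0.62) rose, and the stargazin relatives Cacng4 (-1.14 and -0.93) and Cacng7 (-0.95 and -1.14) fell. Of 21 postsynaptic density scaffolds 2 rose in each treatment, Dlg3 (0.46 and 0.55) in both, and 8 or 11 fell, Shank1 by -1.37 and -1.48. Of 6 GABA-B auxiliary genes Kctd8 (0.43 and 0.51) and the potassium channel Kcnj3 (0.38 and 0.46) rose and Ajap1 (-0.36 and -0.39) fell. Of 8 nicotinic chaperones and prototoxins Ric3 (0.30 and 0.52), a chaperone, rose, and 5 fell, with Lypd6 (-0.62 and -0.67) and Lypd1 (-0.55 and -0.56) among them.

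Members that rose had on the whole a lower GC content than members that fell, with Grin1 (59.4%) as an exception. The longest transcript of the 25 members that rose in both treatments had a median GC content of 42.0%, that of the 8 that fell 58.8% and that of all genes 49.96%. Over the 58 members GC content and IP minus input change correlated at r = -0.66 in EYFP and r = -0.72 in hTyr animals, and over 12380 genes with a length at r = -0.36 and r = -0.45. These r are across genes, which share libraries and are not independent. The dependence on length and GC content was then taken out of every library. This left 18 of 58 members higher and 7 lower in EYFP animals, beside 25.9% and 30.7% of all genes. In hTyr animals 23 of 58 were higher and 6 lower, beside 24.4% and 28.4% of all genes. Gabrq (1.20 and 1.33), Chrna6 (1.12 and 1.29), Gabrb2 (0.83 and 1.08), and Htr1a (-0.57 and -0.43) kept their calls under this removal.

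Other members did not. Gria2 (0.07 and 0.02), Gabbr2 (-0.25 and -0.24), Grin2c (-0.04 and -0.13), Grin2d (0.01 and -0.03), Gabrg3 (-0.05 and -0.04) and Grik2 (-0.10 and -0.17) lost their calls in both treatments, and the last 2 changed sign in both, Grin2d in EYFP animals. Gabra2 (0.46, adjusted p = 0.0928), Grik5 (-0.17, adjusted p = 0.0546), Grm4 (-0.23, adjusted p = 0.172), Glrb (0.15, adjusted p = 0.0944), Chrm2 (0.18, adjusted p = 0.0840) and Glra1 (-0.33, adjusted p = 0.0515) lost theirs in EYFP animals, and Grik4 (-0.17) and Grin3a (0.11) in hTyr animals. Grin1 went the other way, from 0.41 to 0.63 in EYFP and from 0.34 to 0.65 in hTyr animals. In the unpaired test several members moved down past the threshold only after the removal. They were Gabra3 (-0.25, adjusted p = 0.0070), Gabra5 (-0.30, adjusted p = 0.0489) and Chrna7 (-0.42, adjusted p = 0.0210) in EYFP animals and Htr5a in both (-0.46 and -0.37). Gabra5 and Htr5a were also called lower in EYFP animals with the animal as a block and no removal. Gabrg1, at 35.3% GC the lowest of all members, kept its calls at 0.50 and 0.57.

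**Figure D4:**
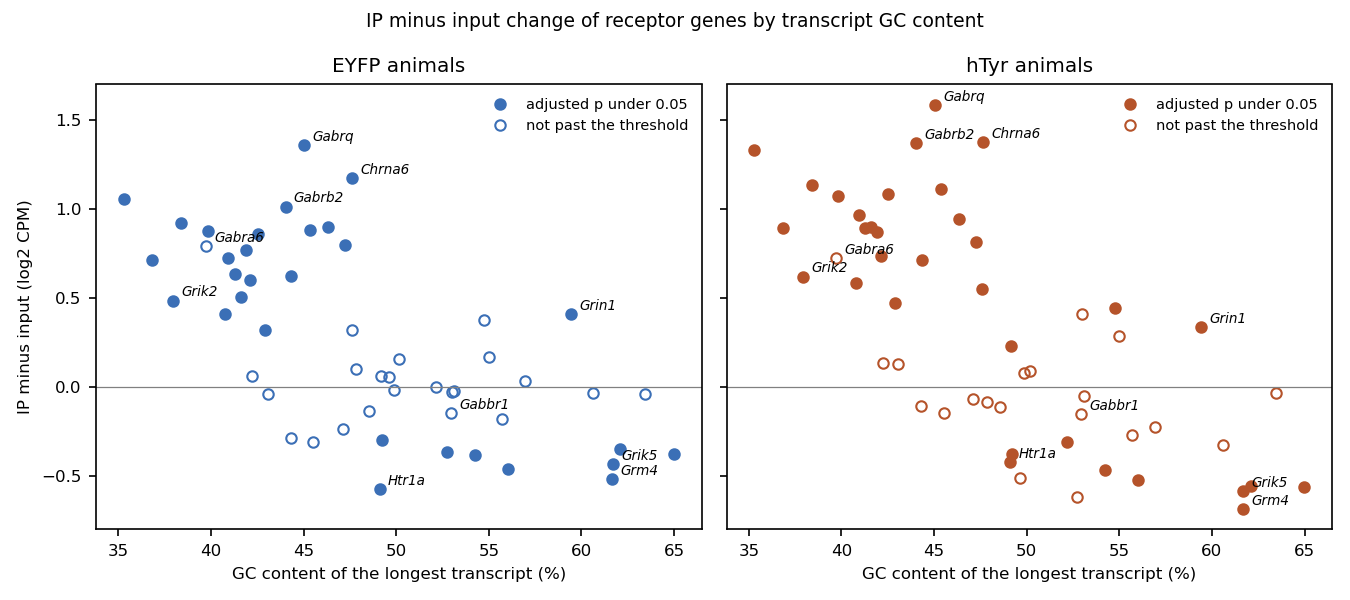
IP minus input change (log2 CPM, vertical axis) against GC content of the longest transcript (percent, horizontal axis) for receptor genes in EYFP (left) and hTyr animals (right); filled points passed adjusted p under 0.05. The plotted members that rose in both treatments lie between Gabrg1 (35.3%) and Chrna6 (47.6%) except for Grin1 (59.4%), and the points fall from left to right.

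The comparison that the study's design names, hTyr against EYFP in IP, found 0 of 58 members past the threshold (lowest adjusted p = 0.545), where 7 of 12596 genes (0.0556%) passed. At an unadjusted p under 0.05 it found 2 members (3.45%), beside 6.19% of all genes. In input 0 members passed (1 gene in all, 0.00794%), with 2 at an unadjusted p under 0.05 (3.45%, beside 3.03%). The interaction, which sets the hTyr effect in IP against that in input, also found 0 members (1 gene in all, 0.00794%), with 2 at an unadjusted p under 0.05 (3.45%, beside 3.31%). limma's voom on the recovered reads gave 0 members in each of the 3 comparisons too. The test had the precision to bound most members. The 95% interval of the hTyr minus EYFP difference in IP lay within ±0.5 on the log2 scale for 38 members and within ±1 for 55, with a median half-width of 0.29 (0.15 to 0.97). In input 47 intervals lay within ±0.5.

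Gabrq differed by 0.33 ± 0.26 in IP (95% interval -0.21 to 0.87). Gabra3 differed by 0.11 ± 0.09 (-0.08 to 0.30) and Gabbr1 by 0.03 ± 0.07 (-0.12 to 0.18). Chrm2, with an IP minus input rise of 0.90 in hTyr and 0.51 in EYFP animals, had a positive interaction value at an unadjusted p under 0.05 (0.39 ± 0.18, adjusted p = 0.996). Grik4 had a negative one (-0.31 ± 0.14, adjusted p = 0.996). With the animal as a block, 6 members had an unadjusted interaction p under 0.05, Gabrb2 and Htr1d among them, and 0 passed after adjustment (lowest adjusted p = 0.699). Of all 12596 genes, 874 had an unadjusted p under 0.05 in that blocked test and 5 passed after adjustment. Gabrb1 was lower in hTyr input by -0.27 ± 0.12 (adjusted p = 0.990) and at -0.03 ± 0.13 in IP.

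The 2 members with an unadjusted p under 0.05 in IP were Gabra6 and Grin2c, both lower in hTyr animals. Gabra6 IP values in EYFP animals ran from 1.86 to 4.76 (median 2.62), and hTyr animals had 0.91, 1.10, 1.20, 1.55 and 1.90. The 2 lowest EYFP values (1.86 and 1.89) lay just below the highest hTyr value, and the other 4 lay above it. In input Gabra6 ran from -0.60 to 4.16 (median 2.52) in EYFP animals and stood at -0.38, 0.10, 0.94, 1.17 and 1.19 in hTyr animals. The differences were -1.53 ± 0.43 in IP (adjusted p = 0.545) and -1.46 ± 0.65 in input (adjusted p = 0.990), that is, of similar size before and after the immunoprecipitation. Without animal IP_506, the EYFP animal with the highest values, the IP difference was -1.14. Grin2c differed by -0.42 ± 0.13 in IP (adjusted p = 0.681) and by -0.21 ± 0.12 in input.

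Markers of cerebellar granule neurons moved with Gabra6. The mean of 9 such markers was 4.68 ± 0.57 log2 CPM in EYFP input (SD, n = 6), 4.31 ± 0.59 in EYFP IP, 4.16 ± 0.14 in hTyr input (SD, n = 5) and 3.65 ± 0.24 in hTyr IP. Their summed level ranged from 8.30 to 9.24 in EYFP input, 7.91 to 8.88 in EYFP IP, 8.24 to 8.57 in hTyr input and 7.79 to 8.24 in hTyr IP (log2 of summed CPM), and no marker was at 0 reads in a whole group. All 9 were lower in hTyr than in EYFP animals in IP and in input, 5 and 4 of them at an unadjusted p under 0.05 and 0 after adjustment, with Cbln3 at -1.46 and -1.26 and Fat2 at -1.36 and -0.85. Markers of Purkinje neurons, the output cells of the cerebellar cortex, were lower in hTyr animals as well, 7 of 7 in IP and 6 of 7 in input, 5 and 4 at an unadjusted p under 0.05 and 0 after adjustment, with medians of -0.87 and -0.77 beside -0.40 and -0.31 for the granule markers. Across the 11 animals Gabra6 followed the marker mean in input (Pearson r = 0.94, permutation p = 2e-05, adjusted over 6 relations 0.00012; Spearman rho = 0.96, p = 4.0e-05, adjusted 0.00024), at r = 0.90 without the 2 farthest samples and r = 0.94 within the 6 EYFP animals. This r and those over 11 animals below pool both treatments, so a treatment difference shared by gene and markers enters them. Of the 58 members only Gabra6, Grin2c and Grm4 were examined in this way, and the adjustment covers their 6 relations alone. Gabra6 and Grin2c are also the 2 members with an unadjusted p under 0.05 between treatments in IP. Their permutation p-values are therefore not independent of that difference. The r within EYFP animals have no p-value, and input and IP libraries came from the same animals.

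In IP the relation of Gabra6 was r = 0.90 (permutation p = 0.00051, adjusted 0.00153; rho = 0.61, p = 0.0515, adjusted 0.0773), 0.68 without the 2 farthest samples and 0.89 within EYFP animals. For Grin2c in IP r was 0.82 (permutation p = 0.0020, adjusted 0.0040; rho = 0.75, p = 0.0099, adjusted 0.0198), 0.48 without the 2 farthest samples and 0.81 within EYFP animals. In input Grin2c gave r = 0.66 (permutation p = 0.0280, adjusted 0.0280; rho = 0.42, p = 0.202, adjusted 0.202), 0.35 without the 2 farthest samples and 0.62 within EYFP animals. Grm4, the remaining gene examined, gave r = 0.78 in IP (permutation p = 0.0044, adjusted 0.00629; rho = 0.79, p = 0.00578, adjusted 0.0173), 0.53 without the 2 farthest samples and 0.96 within EYFP animals. Its values in input were r = 0.76 (permutation p = 0.00524, adjusted 0.00629; rho = 0.55, p = 0.0822, adjusted 0.0987), 0.36 without the 2 farthest samples and 0.89 within EYFP animals. Over the 11 animals the relations of Grin2c and Grm4, and that of Gabra6 in IP, were weaker without the 2 farthest samples and so rest in part on them. The hTyr groups of 5 are too small for an r of their own. Gabra6 differed from the markers in 1 respect: the granule marker mean was lower in IP than in input, while Gabra6 was higher in IP in 10 of 11 animals. The part of granule or Purkinje neuron RNA in the treatment difference was not tested.

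**Figure D5:**
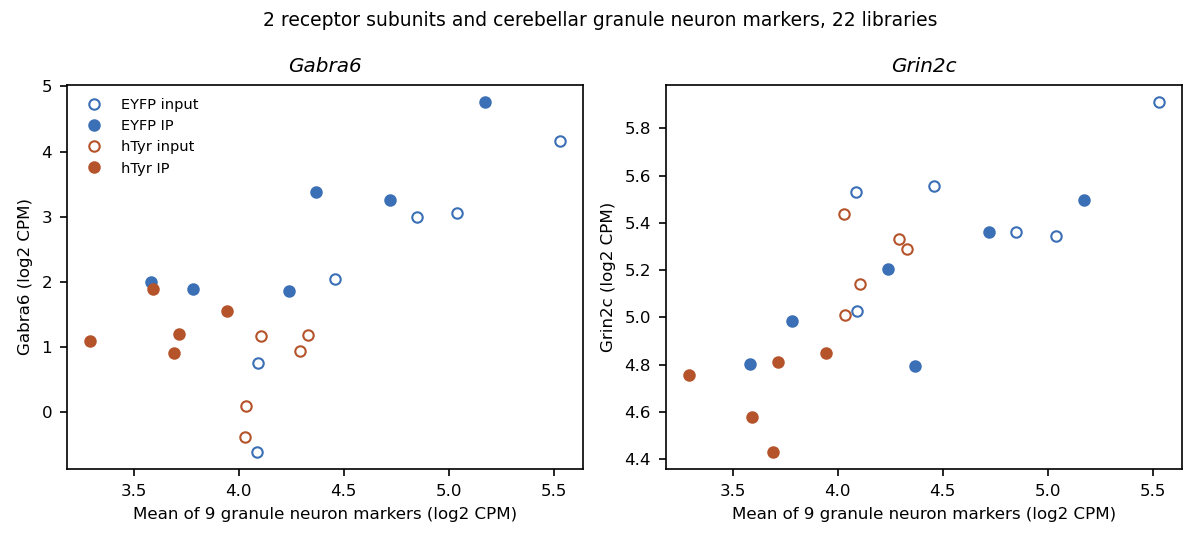
Level of Gabra6 (left) and Grin2c (right) in log2 CPM against the mean of 9 cerebellar granule neuron markers in the same library (horizontal axis, log2 CPM); open points are input and filled points IP, blue EYFP and brown hTyr. EYFP libraries reach the highest marker means and the highest Gabra6 and Grin2c levels, and hTyr IP libraries lie at the lower left.

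Whether receptor levels followed the degree of noradrenergic enrichment was examined across the 11 IP libraries, with treatment in the model and the mean of the noradrenergic markers as the predictor, an analysis added after the data were seen. That mean ran from 5.28 to 6.27 in EYFP IP and from 5.51 to 6.92 in hTyr IP. Only Glra2 passed the threshold (slope 0.50 ± 0.10 log2 CPM per unit, adjusted p = 0.0454), 1 of 58 members (1.72%) beside 0.413% of all genes. Without animal IP_501, IP_502, IP_504, IP_506, IP_507, IP_508, IP_509, IP_511 or IP_512 the Glra2 call was lost (adjusted p 0.0625 to 0.237). Gabrq had the steeper slope of 0.91 ± 0.21 (adjusted p = 0.0999; 0.0307 without animal IP_505 and 0.0119 without IP_507), Chrna6 had 0.67 ± 0.17 (adjusted p = 0.138) and Chrnb3 0.52 ± 0.17 (adjusted p = 0.266). Gabrb2, which rose clearly in IP, had a slope of -0.02 ± 0.17 (95% interval -0.39 to 0.35). Gria2 was at -0.18 ± 0.18.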

How the data were processed

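The deposited table gives 12596 genes in 22 libraries as log2 CPM, which the authors filtered, normalized and log-transformed, per the file name; the method of each step is not given in the sources used here. Reads were aligned to mm10 with STAR and counted with featureCounts, per the submitters' processing notes. Whole reads were recovered for 100% of values (tolerance 0.05 reads), so 12654489 to 25100142 reads per library bound the counting error. Groups were compared with limma 3.58.1 on the log2 values (moderated variance with trend, Benjamini-Hochberg over all genes, threshold 0.05); voom on the recovered reads was an alternative. Each IP and input pair came from 1 animal by the shared number of the titles, and all 11 IP libraries correlated best with their own input (r 0.28 to 0.63). Transcript length and GC content, from GENCODE, were known for 98.3% of genes and all 58 members, and their trend was removed per library by loess in an alternative. Some members enter the counts but are not reported here by name. Methods were tested on simulated data. The members, lists and named genes (every member, partners by largest change) were chosen with earlier results of these data known.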

Additional observations from a re-analysis of the deposited data

Results flagged for a closer look

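In 10 of the 232 combinations of a gene and a group, 1 library stood apart from the rest of its group by Dixon's test, where chance alone gives about 11.6. In 4 of the 10 the library came from animal IP_509, in hTyr input for Chrm1 (4.95 log2 CPM, the nearest other library 2.49), Gabra5 (6.10, nearest 5.46) and Gabrq (3.43, nearest 3.07) and in hTyr IP for Gabra5 (5.93, nearest 5.39). Animal IP_505 gave 2, Gabra5 in EYFP IP, which was high (5.85, nearest 5.44), and Gria4 in EYFP input, which was low (5.25, nearest 5.74). In these animals Slc17a7 and Neurod6 were the highest of their groups as well, and their part in these values was not tested. Animal IP_512 was lowest in EYFP input for Chrnb2 (6.01, nearest 6.26) and Grik3 (5.27, nearest 5.44). Gabrb2 was lowest in hTyr input of animal IP_501 (5.37, nearest 5.94), and Htr7 in hTyr input of animal IP_510 (4.71, nearest 5.08).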

How the results depend on the processing

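Leaving out each animal in turn gave 23 to 25 members higher and 6 to 10 lower in EYFP animals. Of all 12596 genes, 3137 to 3646 were higher and 2954 to 3685 lower in those runs. In hTyr animals 25 to 28 members were higher and 7 to 10 lower, beside 3085 to 3282 and 2810 to 3146 genes. Of the 34 and 37 calls, 28 and 31 held in every such run, and 21 and 27 under every other setting. With a replicate block on the animal, 28 members were higher and 13 lower in EYFP animals, beside 3964 and 4169 of 12596 genes. In hTyr animals 29 were higher and 12 lower, beside 3661 and 3779 genes. The block changed no call beyond those given beside the genes. Requiring a change of at least 1 on the log2 scale left 5 members higher and 0 lower in EYFP animals, beside 385 and 62 of all genes. It left 10 and 0 in hTyr animals, beside 684 and 138 genes. Removal of the length and GC trend, with and without the block, turned the sign of Grik2 (-0.10 and -0.17) and Gabrg3 (-0.0544 and -0.0438) in EYFP and hTyr animals and of Grin3a (-0.0162) and Grin2d (0.0117) in EYFP animals. Grik4 in EYFP animals, at 0.00, turned to -0.0581 with quantile normalization, -0.0505 with median centring, -0.0048 with a pseudocount of 5 CPM and with voom, -0.0423 with quality weights and ran from -0.0301 to 0.0223 without single animals, below 0 without IP_504 or IP_505; the cause was not tested. The slope on noradrenergic enrichment called 2 members with no treatment term, 0 after the length and GC removal, and 0 to 2 without single animals. The share of all genes called in those runs is not given here, so the counts have no background. The 0.413% of all genes given for the slope belongs to the main fit alone. Low depth limits Gabra6, with 9 to 554 reads per library, more than any other member.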
